A study of Notophthalmus viridescens with 3 samples.

Results

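The miRNAs miR-499 and miR-208 were followed in regenerating hearts of the red-spotted newt, Notophthalmus viridescens. Their probes were taken by name from an array of human, zebrafish and frog miRNA probes: every miRNA probe called miR-208, miR-208a, miR-208b, miR-499, miR-499-5p or miR-499-3p, whatever its species. This gave 7 of 1365 miRNA probes, each printed as 3 spots, under 6 of the 1242 miRNA names that remain once the species prefix is removed. The study measured total RNA of whole hearts of adult newts in 3 samples. One sample came from uninjured hearts (labelled with no stress), 1 from hearts 7 days post injury (dpi) and 1 from hearts 21 dpi, and each was read on 1 array with the dye Cy3. The labels refer to an earlier publication for the injury and do not give the number of animals in a sample. Each group is a single sample, so no difference has a replicate check or a p-value. Each ± is the technical spread over the 3 spots of a probe, and precision is limited by having 3 arrays.

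In mammals these miRNAs lie inside genes of myosin heavy chains, the motor proteins of the muscle filament. In their introns MYH6 holds miR-208a, MYH7 holds miR-208b and MYH7B holds miR-499, and each miRNA is made with its host transcript in heart or slow skeletal muscle. In mice, miR-208b and miR-499 dampen repressors of slow muscle genes such as Sox6, and miR-208a takes part in the switch of myosin genes under cardiac stress. No newt genome was used here, so the host genes of the newt miRNAs were not examined.

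The target sequences of the probes show what could be told apart. They are written 5′ to 3′ as the array files list them, with the seed, bases 2 to 8 that pair with target mRNAs, in capitals. The last line is the only probe outside the 7 that shares bases 2 to 7 with them.
dre-miR-499: uUAAGACUugcagugauguuua
hsa-miR-499-5p: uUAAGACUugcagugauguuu
xtr-miR-499: uUAAGACUugcagugauguuuag
hsa-miR-499-3p: aACAUCACagcaagucugugcu
hsa-miR-208a: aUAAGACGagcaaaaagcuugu
hsa-miR-208b: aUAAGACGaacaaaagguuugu
xtr-miR-208: aUAAGACGagcauaaagcuugu
dre-miR-736: gUAAGACGaacaaaaaguuuu

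The zebrafish (dre), human (hsa) and frog (xtr) probes of the 5′ arm of miR-499 target 1 sequence with different 3′ ends, of 22, 21 and 23 bases, and have 0 mismatches over the bases they share. They are therefore repeat readings of 1 miRNA and not independent members. The probe hsa-miR-499-3p targets the other arm of the human hairpin and has another seed. The miR-208 probes have the seed UAAGACG, which differs from the UAAGACU of miR-499 in its last base. Counted from 1 at the 5′ end, hsa-miR-208a and hsa-miR-208b differ at 3 of 22 bases (G10A, A16G and C18U, the base of miR-208a first), and hsa-miR-208a and xtr-miR-208 at 1 (A13U). Of all 1365 probes, 7 had UAAGAC at bases 2 to 7, or 0.513%, and 6 of these belong to the 7 described. The GC content was 31.8% for dre-miR-499 and for hsa-miR-208b, against a median of 47.8% over all miRNA probes.

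Signal was present for the 5′ arm of miR-499 and for miR-208b on all 3 arrays, and the other 3 probes were not above the empty spots on any array. A probe was taken as detected on an array if the median of its 3 spots lay above 95% of the 587 empty spots there, a limit of 73.8, 77.5 and 103 in scanner units on the uninjured, 7 dpi and 21 dpi arrays. The number of miRNA probes that passed was 225, 220 and 180 on these arrays, and 169 passed on all 3. The same 4 of 7 probes passed when the limit was raised to percentile 99.

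The spots of dre-miR-499 read 4129.7, 4073 and 4076 in the uninjured hearts. They read 1728, 1649.8 and 1524 at 7 dpi, and 6422, 6373 and 6044 at 21 dpi. As scanned, the spots of the 3 arrays did not overlap, with 7 dpi lowest and 21 dpi highest.

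The frog probe of the same miRNA behaved alike. Its spots read 3793, 3725 and 3519.7 in the uninjured hearts, 1722, 1644 and 1489 at 7 dpi, and 5835, 6159 and 5991 at 21 dpi. The human probe hsa-miR-499-5p read 3532, 3565 and 4024 in the uninjured hearts and 5820.0, 6388 and 6240.2 at 21 dpi. At 7 dpi its spots read 1692, 1536 and 113, so that 1 spot stood far below the others. That spot lay at 2.71% of the mean of the other spots above the empty-spot median. The standard deviation of its pixels was 25.5% of its intensity, against 5.64% and 7.45% in the other spots of the probe on that array. Of 660 spots of detected miRNA probes on the 7 dpi array, 22 lay at 50% or less of their probe's median above the empty spots, against 24 of 675 on the uninjured array and 22 of 540 on the 21 dpi array. Spots this dim thus occurred at 3.33% on the 7 dpi array, against 3.56% and 4.07% on the uninjured and 21 dpi arrays.

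The spots of hsa-miR-208b read 874, 993 and 1181 in the uninjured hearts. They read 386, 372 and 407 at 7 dpi, and 1457, 1456 and 1205 at 21 dpi. The 7 dpi spots again lay below all others, and the 21 dpi spots above the uninjured ones.

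**Figure D1:**
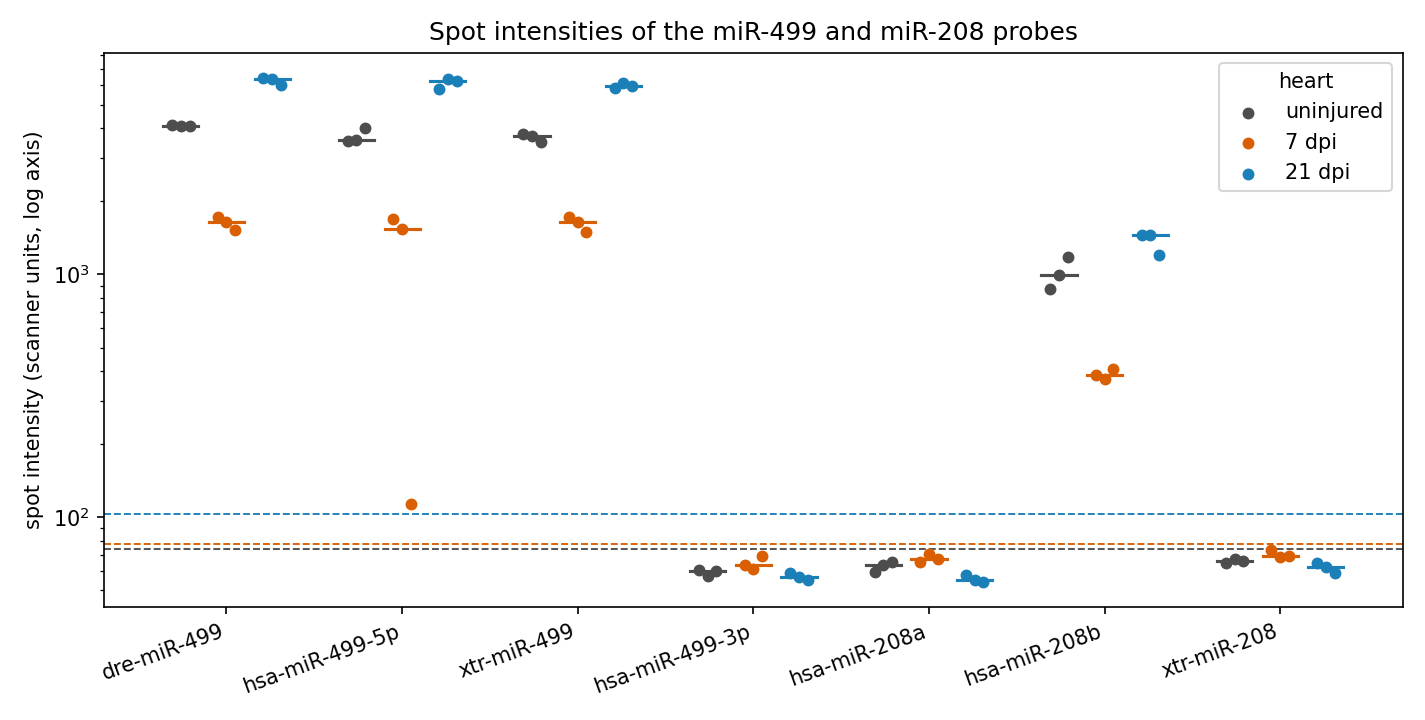
Intensity of each of the 3 spots of the 7 probes (log axis, scanner units, as deposited) in uninjured hearts, at 7 dpi and at 21 dpi; short bars are the median spot and dashed lines the detection limit of each array. The 3 probes of the 5′ arm of miR-499 and hsa-miR-208b stand above the limits on all 3 arrays, 1 spot of hsa-miR-499-5p at 7 dpi stands at 113, and hsa-miR-499-3p, hsa-miR-208a and xtr-miR-208 lie below the limits.

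The undetected probes lay in the lower part of the empty spots. The median spot of hsa-miR-208a, which in mammals is made with the myosin transcript of the adult mouse ventricle, read 63.4, 67.6 and 55.0 on the uninjured, 7 dpi and 21 dpi arrays, at percentiles 8.01, 20.3 and 0.511 of the empty spots. That of xtr-miR-208 read 66.1, 69.1 and 62.5, and that of hsa-miR-499-3p, the other arm, read 60.1, 63.4 and 56.6. No fold difference is given for these probes. The zebrafish probe dre-miR-736, which differs from hsa-miR-208b at 3 of 21 bases (A1G, G16A and G21U, with 1 base less at the 3′ end), read 63.9, 67.3 and 57.7 and was not detected either. Detection within the miR-208 seed group thus rested on 1 of 4 sequences. The newt's own miR-208 sequence was not examined.

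Outside the 7 probes, few array targets resemble them. The nearest sequence to hsa-miR-208b was dre-miR-736 at an edit distance of 3, followed by 3 sequences at 8, dre-miR-15a among them, none of them detected on any array. For dre-miR-499 the nearest were 6 sequences at 8, such as dre-miR-7b and hsa-miR-16-2*, of which 5 were detected on no array and 1 on all 3. For xtr-miR-499 they were hsa-miR-338-3p and xtr-miR-7 at 8, of which hsa-miR-338-3p was detected on 1 array. For hsa-miR-499-5p they were 13 sequences at 8, of which 11 were detected on no array and 2 on all 3, dre-miR-26b being 1 of these.

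How far the readings reflect the array as a whole had to be taken into account first. Among the 169 probes detected on all arrays, the median log2 ratio of signal above the empty spots was -1.43 at 7 dpi and 0.42 at 21 dpi, both relative to the uninjured array. For 14 probes of 5S rRNA it was -0.10 and 0.35, and for 16 spike-in probes 0.46 and 1.46. On the same unscaled measure dre-miR-499 stood at -1.34 ± 0.06 (SE over spots) at 7 dpi and 0.65 ± 0.03 at 21 dpi. The frog probe stood at -1.22 ± 0.07 and 0.69 ± 0.04. The human probe hsa-miR-208b stood at -1.56 ± 0.14 and 0.58 ± 0.17. Set against the median of all detected probes, these ratios differed by 0.08, 0.21 and -0.13 at 7 dpi and by 0.24, 0.28 and 0.17 at 21 dpi. Of the 169 probes, 55.0% were below dre-miR-499 and 39.6% below hsa-miR-208b at 7 dpi, and 61.5% and 59.8% at 21 dpi. The low 7 dpi and high 21 dpi readings of both miRNAs were thus shared by the typical probe. Since each sample is a whole heart, fewer muscle cells and less of a miRNA per cell cannot be told apart.

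After quantile normalization, which gives all arrays 1 distribution of miRNA signal, miR-499 was near its uninjured level at 7 dpi. Such normalization sets a level by the rank of the probe on its array, so a difference is a step between ranks. The ± is the spread of spots before that step and is not the precision of a fold. The probe dre-miR-499 had 11.76 ± 0.09 log2 units at 7 dpi and 11.65 ± 0.01 in the uninjured hearts (SD, 3 spots each), a difference of 0.11 ± 0.05 (SE over spots) with overlapping spots. The probe xtr-miR-499 had 11.72 ± 0.11 at 7 dpi and 11.42 ± 0.06 in the uninjured hearts, a difference of 0.30 ± 0.07 with spots that did not overlap. Its direction turned with the scaling, to -0.01 with a shift to the median of the miRNA probes detected on all arrays, -0.66 with a shift to the 5S rRNA probes, -1.19 without scaling and -1.43 with a shift to the spike-in probes. For dre-miR-499 these values were -0.15, -0.80, -1.33 and -1.57. The shifts aligned the median corrected level of the reference probes on each array. Set against the median unscaled ratio of the 169 probes detected on all arrays, xtr-miR-499 and dre-miR-499 stood at 0.21 and 0.08. The direction thus turned with the measure of signal as well as with the reference. Over all probes tested at 7 dpi, 27.8% were higher with spots apart and 40.8% lower with spots apart.

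The probe hsa-miR-499-5p had 10.30 ± 2.27 at 7 dpi and 11.44 ± 0.11 in the uninjured hearts, a difference of -1.15 ± 1.31. That value rests on the dim spot. With the median of spots in place of the mean the difference was 0.22, and with all dim spots left out, an alternative chosen after seeing the data, it was also 0.22. So treated, the 3 probes of miR-499 gave 0.09, 0.22 and 0.32 at 7 dpi (zebrafish, human and frog).

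For hsa-miR-208b the level was 9.49 ± 0.07 at 7 dpi and 9.71 ± 0.22 in the uninjured hearts, a difference of -0.22 ± 0.13 with overlapping spots. Calls required 3 things of a probe: a difference of 2-fold or more, no overlap of its spots between the arrays, and detection on 1 or both of them. The undetected probes could thus not be called. None of the 4 detected probes was called at 7 dpi, where 12.5% of 255 tested probes were (8.63% higher and 3.92% lower). Without scaling of the arrays all 4 were called lower, at -1.33 for dre-miR-499 and -1.40 for hsa-miR-208b. With a shift to the spike-in probes 4 were called lower as well. With a shift to the 5S rRNA probes 1 was, hsa-miR-499-5p with its dim spot. That shift aligned the median corrected level of the 5S probes on each array. It did not use their median ratio above the empty spots, which was -0.10, and calls scaled by that ratio were not computed. Calls of lower were common under these settings. Over all tested probes 96 were called lower without scaling, 113 with the spike-in shift and 30 with the 5S shift. The median size of a difference over these 255 probes was 0.31, above those of dre-miR-499, xtr-miR-499 and hsa-miR-208b.

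At 21 dpi, after quantile normalization, all 3 probes of miR-499 stood above their uninjured level by less than 2-fold, and miR-208b was near its own. Without scaling this contrast was smaller. The differences were then 0.62, 0.73 and 0.71 for miR-499 (zebrafish, human and frog probes) and 0.45 for hsa-miR-208b. The unscaled log2 ratios above the empty spots were 0.65 ± 0.03, 0.82 ± 0.07 and 0.69 ± 0.04 for these miR-499 probes and 0.58 ± 0.17 for hsa-miR-208b. The ratio of hsa-miR-208b to dre-miR-499 changed by -0.07 ± 0.17. The levels that follow are quantile normalized, so their differences are again steps between ranks, whose precision the ± over spots does not measure. The probe dre-miR-499 had 12.10 ± 0.05 at 21 dpi and 11.65 ± 0.01 in the uninjured hearts, a difference of 0.44 ± 0.03, or 1.36-fold. The probe hsa-miR-499-5p had 12.02 ± 0.07 at 21 dpi and 11.44 ± 0.11 in the uninjured hearts, a difference of 0.58 ± 0.07. The probe xtr-miR-499 had 11.96 ± 0.04 at 21 dpi and 11.42 ± 0.06 in the uninjured hearts, a difference of 0.55 ± 0.04. These spots did not overlap, which held with a higher level at 21 dpi for 23% of 230 tested probes, and 86.1% of the tested probes had a lower difference than dre-miR-499. The level of hsa-miR-208b was 9.76 ± 0.16 at 21 dpi and 9.71 ± 0.22 in the uninjured hearts, a difference of 0.06 ± 0.16 with overlapping spots. None of the 4 detected probes, all but hsa-miR-208b reading miR-499, was called, against 3.04% of all those tested (0.87% higher and 2.17% lower). None of them was lower with spots apart, against 31.7%.

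The size of the miR-499 difference at 21 dpi depends on the treatment of the array. For dre-miR-499 it was 0.52 with cyclic loess, 0.26 with arrays shifted to the median of the miRNA probes detected on all of them, 0.12 with a shift to the 5S rRNA probes and -0.94 with a shift to the spike-in probes. With the second spot of every probe left out it was 0.97, and with the first left out 0.31. In the processed intensities deposited by the authors dre-miR-499 read 2921, 3097 and 4344 in the uninjured hearts, at 7 dpi and at 21 dpi, and hsa-miR-208b read 748, 675 and 803. On log2 of these values plus 50, the difference from the uninjured hearts at 21 dpi was 0.56 for dre-miR-499 and 0.09 for hsa-miR-208b.

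**Figure D2:**
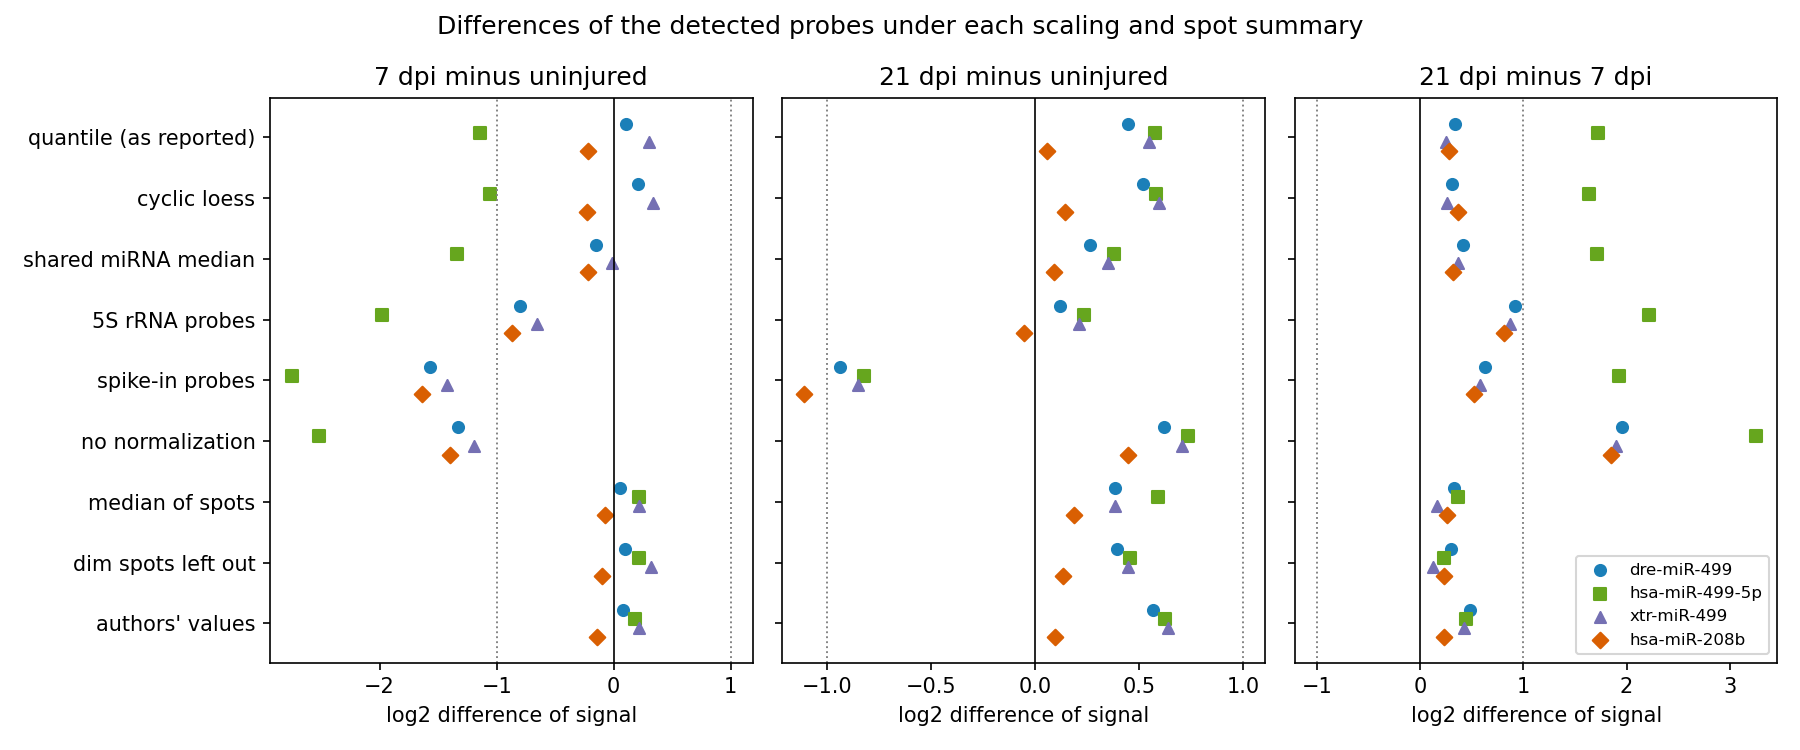
Log2 differences of the 4 detected probes in the 3 comparisons (panels), with 1 row for each way of scaling arrays or summarising spots; the solid line is 0 and dotted lines are 2-fold. The 3 miR-499 probes lie together except where the dim 7 dpi spot of hsa-miR-499-5p enters, and at 21 dpi they lie above the uninjured hearts in every row but the one for spike-in probes, where dre-miR-499 stands at -0.94.

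Between the injured hearts, both miRNAs were higher at 21 dpi than at 7 dpi, by an amount that depended on the scaling. The difference was 0.34 ± 0.06 for dre-miR-499, 0.25 ± 0.07 for xtr-miR-499 and 0.28 ± 0.10 for hsa-miR-208b, each with spots that did not overlap. Without scaling all 4 detected probes were called higher, dre-miR-499 at 1.95 and hsa-miR-208b at 1.85. So were most probes: of 231 tested, 127 were called higher and 4 lower without scaling. With the 5S rRNA shift dre-miR-499 and hsa-miR-208b stood at 0.92 and 0.82, and with the spike-in shift at 0.63 and 0.53. Without the second spot of every probe dre-miR-499 stood at 0.78. After quantile normalization 3.9% of 231 tested probes were called higher and 8.66% lower. Of the 4 detected probes only hsa-miR-499-5p was then called, as higher, at 1.72 ± 1.31. This call was lost with the median of spots, at 0.37, and with dim spots left out, at 0.23. Over all tested probes 37.2% were higher and 32% lower with spots apart, and 67.5% had a smaller or more negative difference than dre-miR-499. On the unscaled measure the median log2 ratio of the 169 probes detected on all arrays was 1.93. The ratios of dre-miR-499, xtr-miR-499 and hsa-miR-208b differed from that median by 0.06, -0.02 and 0.21. The unscaled rise of miR-499 was thus close to that of the typical probe.

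Across the 3 samples, then, normalized levels of dre-miR-499 ran 11.65, 11.76 and 12.10 in the uninjured hearts, at 7 dpi and at 21 dpi, of which the uninjured and 7 dpi spots overlapped and the 21 dpi spots stood above both. Those of hsa-miR-208b ran 9.71, 9.49 and 9.76, of which only the 7 and 21 dpi spots did not overlap.

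A list of other striated muscle miRNAs was read on the same arrays. The list comprised probes of miR-1 and miR-133, the most abundant miRNAs of striated muscle, of miR-206, which is typical of skeletal muscle, and of miR-486. The probes hsa-miR-206 and hsa-miR-486-3p lay near the empty spots, at 12.4 and 6.7 above them in the uninjured hearts. Star strands apart, the list holds 13 probes beside those of miR-499 and miR-208, and 12 of them were tested against the uninjured hearts. At 7 dpi 0 were called higher and 1 lower, with a median of -0.20, against a median of -0.11 over all probes tested. At 21 dpi 0 were called higher and 1 lower, with a median of -0.09, against -0.06 over all. The probe called lower in both was xla-miR-1b, at -2.22 ± 0.07 and -1.04 ± 0.08. At 21 dpi relative to 7 dpi 1 of 11 was called higher, again xla-miR-1b, with a median of 0.00, against 0.05 over all. For miR-499 and miR-208b, the 4 detected probes had a median of -0.06 at 7 dpi (with the dim spot included) and 0.50 at 21 dpi relative to the uninjured hearts. All of them but hsa-miR-208b read miR-499, so these medians are mainly those of 1 miRNA. The probe hsa-miR-208b itself stood at -0.22 and 0.06.

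The ratio of signals of a pair of probes on 1 array is free of any factor common to the array, so its change between arrays was computed as well, a measure chosen after seeing the data. The signal above the empty spots of the brightest miR-1 probe, hsa-miR-1, was 14382 in the uninjured hearts, 3863 at 7 dpi and 8330.0 at 21 dpi. The ratio of dre-miR-499 to hsa-miR-1 was higher at 21 dpi than in the uninjured hearts by 1.44 ± 0.08 (SE over spots), or 2.71-fold, and at 7 dpi by 0.55 ± 0.09. The ratio of hsa-miR-208b to hsa-miR-1 was higher by 1.37 ± 0.18 at 21 dpi and by 0.34 ± 0.16 at 7 dpi. After quantile normalization hsa-miR-1 differed by 0.00 at 21 dpi, and dre-miR-499 stood 0.44 and hsa-miR-208b 0.06 above that. Quantile normalization gives a probe of unchanged rank the same level on both arrays, so 0.00 says only that hsa-miR-1 kept its rank. Its unscaled log2 ratio at 21 dpi was -0.79 ± 0.08.

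Against miR-133 the change was smaller. The ratio of dre-miR-499 to the brightest miR-133 probe, xtr-miR-133c, was higher by 0.61 ± 0.09 at 21 dpi and stood at -0.06 ± 0.09 at 7 dpi, relative to the uninjured hearts. For hsa-miR-208b it was 0.53 ± 0.19 at 21 dpi and -0.28 ± 0.16 at 7 dpi. The choice of probe did not set the direction at 21 dpi relative to the uninjured hearts. Over the 3 probes of miR-1 detected on all arrays, the ratio of dre-miR-499 was higher there by 0.96 to 1.59, and over the 6 probes of miR-133 by 0.29 to 0.61. For hsa-miR-208b these ranges were 0.89 to 1.52 and 0.22 to 0.53. At 21 dpi relative to 7 dpi the choice of miR-1 probe did set the direction. The ratio of dre-miR-499 was higher there over 1 of 3 miR-1 probes, with changes from -0.90 to 0.89. That of hsa-miR-208b was also higher over 1 of 3, with changes from -0.76 to 1.03. At 7 dpi relative to the uninjured hearts the ratio of dre-miR-499 was higher over 3 of 3 miR-1 probes, by 0.55 to 2.49. It was higher over 3 of 6 miR-133 probes, with changes from -0.18 to 0.37. Its ratio to hsa-miR-486-3p went the other way at 7 dpi, by -2.31 ± 0.78. That probe lay near the empty spots, at 6.7 above them in the uninjured hearts and 13.1 at 7 dpi. Near-identical probes of 1 family share signal and are not independent. Because each comparison rests on 1 sample per group, whether these ratios differ between hearts of the same group was not tested.

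The signals of miR-499 and miR-208b were also set against each other, within an array. The ratio of hsa-miR-208b to dre-miR-499 differed from that in the uninjured hearts by -0.21 ± 0.15 at 7 dpi and by -0.07 ± 0.17 at 21 dpi, and 21 dpi differed from 7 dpi by 0.14 ± 0.12. Against xtr-miR-499, the frog probe of the same miRNA, it differed by -0.34 ± 0.16 at 7 dpi, by -0.11 ± 0.17 at 21 dpi and by 0.23 ± 0.13 between them. After quantile normalization the differences of hsa-miR-208b lay below those of dre-miR-499 and xtr-miR-499 by more, at -0.33 and -0.52 at 7 dpi and at -0.39 and -0.49 at 21 dpi. How far miR-208b and miR-499 moved apart thus depended on the miR-499 probe and on the normalization.

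**Figure D3:**
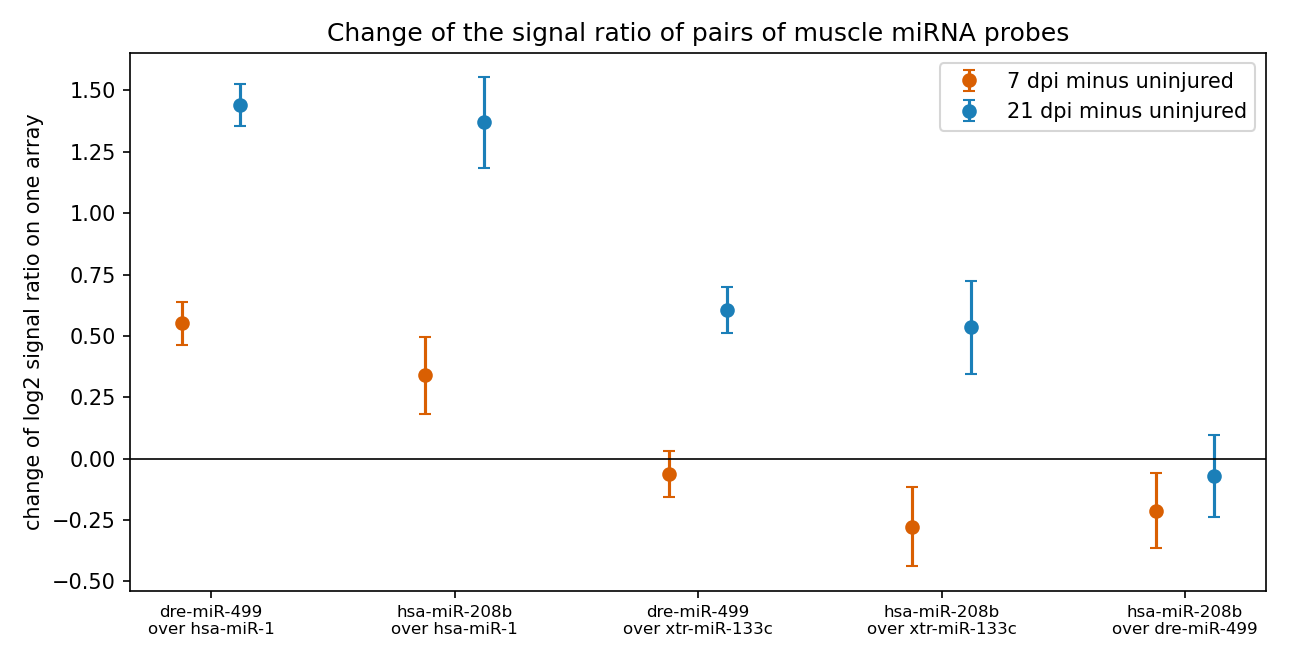
Change of the log2 ratio of signal above the empty spots between pairs of probes on 1 array, 7 dpi minus uninjured and 21 dpi minus uninjured; bars are the SE over spots. The ratios of dre-miR-499 and hsa-miR-208b to hsa-miR-1 were 1.44 and 1.37 higher at 21 dpi, those to xtr-miR-133c 0.61 and 0.53 higher, and the ratio of hsa-miR-208b to dre-miR-499 stood at -0.21 and -0.07.

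The tissue label was checked with miRNAs typical of other cell types. Muscle miRNAs other than miR-499 and miR-208 (miR-1, miR-133a, miR-133b and miR-206, 6 probes) were detected by 6, 5 and 5 probes in the uninjured hearts, at 7 dpi and at 21 dpi, with summed signals above the empty spots of 21605, 6707 and 17029. Of them, hsa-miR-206 was near the empty spots on every array and detected in the uninjured hearts only, at 12.4 above the empty spots. The leukocyte list (miR-142, miR-223, miR-155 and miR-150, 9 probes) was detected by 5, 6 and 6 probes, with sums of 279, 447 and 901, and the probe of miR-142-5p was not detected on any array. The fibroblast and injury list (miR-21, miR-199a and miR-214, 6 probes) was detected by 5 probes on every array, with sums of 4645, 2003 and 8129. The smooth muscle list (miR-143 and miR-145, 5 probes) was detected by 5 probes on every array, with sums of 378, 111 and 813. Sums for the endothelial list (miR-126, 2 probes, both detected on every array) were 5495, 1504 and 5338. The erythroid list (miR-451, miR-144 and miR-486-5p, 4 probes) was detected by 2, 1 and 2 probes, with sums of 3462, 1123 and 4066, and miR-486-5p was not detected. Both probes of the liver miRNA miR-122 were detected at 7 dpi only, and none of 5 probes of the neural miRNAs miR-124 and miR-9 was detected. These sums are unscaled and carry the level of the whole array. The lower muscle sum at 21 dpi was that of hsa-miR-1, while the 4 probes of miR-133a and miR-133b were higher at 21 dpi, such as hsa-miR-133a at 3096 against 2578 in the uninjured hearts. After normalization, the median difference from the uninjured hearts at 7 and 21 dpi was 0.89 and 0.60 for the leukocyte list and -0.44 and 0.35 for the smooth muscle list. It was -0.07 and -0.02 for the fibroblast and injury list, -0.21 and 0.12 for the erythroid list, -0.33 and -0.29 for the endothelial list and -0.20 and -0.03 for the muscle list. The muscle list was matched by exact name and holds only hsa-miR-1 of the miR-1 probes. It left out xtr-miR-1a, at -0.83 and -0.43, and xla-miR-1b, at -2.22 and -1.04. Also left out were dre-miR-133c, at -0.60 and -0.07, xtr-miR-133c, at 0.15 and -0.12, and xla-miR-133d, at 0.10 at both times. For the liver list the median difference at 7 dpi was 1.33, with hsa-miR-122 at 1.64 and xtr-miR-122 at 1.01. At 21 dpi neither liver probe was detected, so none was tested against the uninjured hearts. The source of the miR-122 signal at 7 dpi was not tested. Members of the fibroblast and injury list went different ways. The probe hsa-miR-21 stood at 1.76 and 2.62 and hsa-miR-199a-5p at 0.06 and 0.37. Both miR-214 probes had negative differences at both times, such as hsa-miR-214 at -0.27 ± 0.08 and -0.15 ± 0.08 (SE over spots). The probe hsa-miR-199a-3p stood at -0.86 ± 0.71 and -0.02 ± 0.05, little beyond its spread at 7 dpi and within it at 21 dpi. Unscaled, the miR-214 and miR-199a-3p probes read higher at 21 dpi, such as hsa-miR-214 at 1892 against 1656 in the uninjured hearts. The part of cell composition in the miR-499 values was not tested.

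Among the 165 other probes detected on all arrays, those with the pair of differences nearest to that of dre-miR-499 were hsa-let-7f, hsa-miR-150, hsa-miR-199a-5p, xtr-miR-93a and hsa-miR-20b. The distance was Euclidean over the differences of 7 dpi and 21 dpi from the uninjured hearts, 2 values per probe from 3 samples. The nearest, hsa-let-7f, stood at 0.16 ± 0.09 and 0.45 ± 0.09, a distance of 0.05, and the fifth, hsa-miR-20b, at 0.00 ± 0.12 and 0.40 ± 0.48, a distance of 0.11. The probe xtr-miR-499, which reads the same miRNA as dre-miR-499, lay farther away, at 0.22, with 11 probes of other miRNAs nearer than it. Likeness at this scale is therefore no finer than the disagreement of probes of 1 miRNA. The distance of hsa-miR-208b was 0.51, with 49 probes nearer, beside a median distance of 0.65 over the 165.

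**Figure D4:**
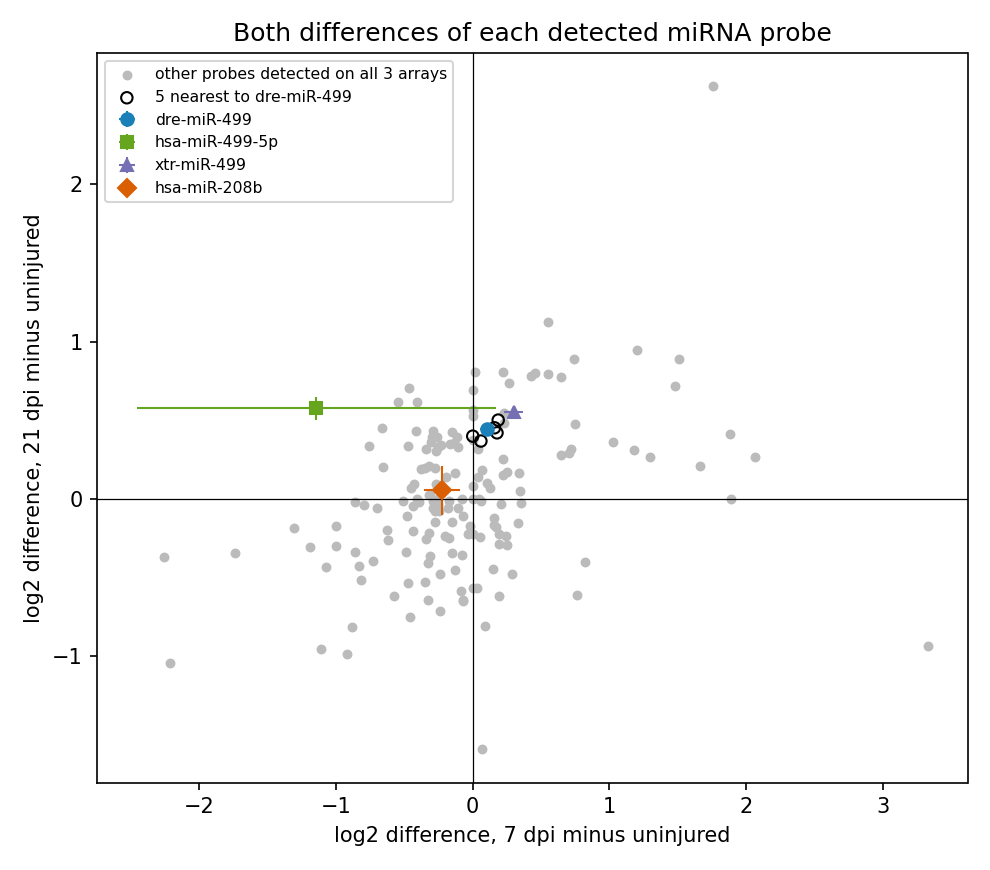
Log2 difference at 7 dpi (horizontal axis) and at 21 dpi (vertical axis) from the uninjured hearts, after normalization, for the 169 miRNA probes detected on all arrays; bars on the named probes are the SE over spots. The probes dre-miR-499 and xtr-miR-499 lie at 0.11 and 0.30 on the first axis and at 0.44 and 0.55 on the second, hsa-miR-208b lies at -0.22 and 0.06, and hsa-miR-499-5p is set off to the left by its dim spot.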

How the data were processed

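The authors deposited, per the file headers, the median intensity of each spot (linear scale, no local background column) for 5022 spots per array, and 1 processed intensity per miRNA probe. From its values the latter is background subtracted and scaled. The method of that step is not given in these sources. It came with array medians of 1.49, 0.807 and 2.40 in the order uninjured, 7 dpi, 21 dpi. Over the 169 probes detected on all arrays its log2 values correlated, within each array, with the log2 signals above the empty spots (Pearson 0.998, 0.999 and 0.997). This compares probes of 1 array and does not compare arrays. Between arrays the values ran differently: dre-miR-499 had processed values of 2921 (uninjured) and 3097 (7 dpi), and median spots of 4076 and 1650. The processed values were taken as linear intensities. Assay input was 0.5 µg of total RNA, per the labels' protocols.

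Intensities were corrected with normexp (offset 50, limma 3.58.1, R 4.3.3) on all spots, put on log2, averaged over spots and quantile normalized over 1365 probes. Unscaled ratios used the median spot minus the median of the empty spots. Shifts to shared miRNA, 5S rRNA or spike-in probes aligned the median corrected log2 level of those probes on each array. Their size therefore need not match the median unscaled ratio of the same probes. Calls were tested on simulated data, into which no dim spots like that of hsa-miR-499-5p were put. Alternatives covered scaling, background, offset, spots, detection, threshold and collapsing of species. Probes and lists were chosen with earlier results of these data known. Besides the 7 probes, the text names the 5 nearest patterns and probes sharing bases 2 to 7 of the sequence. It also names near target sequences of the detected probes and the brightest probe of each listed muscle miRNA. The called probe xla-miR-1b, single probes of the cell type lists and the miR-1 and miR-133 probes outside them are named as well.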

Additional observations from a re-analysis of the deposited data

How the results depend on the processing

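Without scaling of arrays, the 7 dpi minus uninjured difference was -1.33 for dre-miR-499 and -1.40 for hsa-miR-208b, 21 dpi minus uninjured 0.62 and 0.45, and 21 dpi minus 7 dpi 1.95 and 1.85. With a shift to the 5S rRNA probes, 7 dpi minus uninjured was -0.80 and -0.87, and 21 dpi minus 7 dpi 0.92 and 0.82, while dre-miR-499 at 21 dpi minus uninjured was 0.12. With a shift to the spike-in probes they were -1.57 and -1.64, -0.94 and -1.11, and 0.63 and 0.53. For dre-miR-499, cyclic loess gave 0.21 at 7 dpi and 0.52 at 21 dpi, and a shift to the median of the shared miRNA probes -0.15 and 0.26, relative to uninjured hearts. The median of spots gave it 0.38 at 21 dpi, and the authors' processed intensity 0.56, or 0.48 relative to 7 dpi. Leaving out spot 1, 2 or 3 of every probe gave dre-miR-499 0.31 to 0.97 at 21 dpi relative to uninjured hearts and 0.20 to 0.78 relative to 7 dpi, the highest without spot 2; the cause was not tested. Of the 4 detected probes, 4 were called at 7 dpi without scaling, 4 with the spike-in and 1 with the 5S shift, instead of 0. At 21 dpi minus uninjured 1 was called with the spike-in shift, instead of 0. It was hsa-miR-208b, called lower at -1.11, where 163 of 230 tested probes were called lower. At 21 dpi minus 7 dpi, 4 were called without scaling and 0 with the median of spots, without spot 3 or with dim spots left out, instead of 1 (also 1 without spot 1 or spot 2). Detection was the same at both other limits.

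Counts over all probes moved too. At 7 dpi minus uninjured 22 were called higher and 10 lower, against 6 and 96 without scaling, 67 and 7 with the shared-median shift, 3 and 113 with the spike-in shift, 30 lower with the 5S shift and 5 lower with loess. At 21 dpi minus uninjured the 2 and 5 became 18 and 1, 4 and 13, 1 and 163, 16 lower with the 5S shift, and 5 and 11 with loess. At 21 dpi minus 7 dpi the 9 and 20 became 127 and 4, 1 and 68, 3 and 60, 47 lower with the 5S shift, and 1 higher with loess. An offset of 16 gave 21 lower at 7 dpi, 6 and 8 at 21 dpi and 21 higher at 21 dpi minus 7 dpi. Subtraction of the empty-spot median gave 21 lower, 7 and 12, and 27 higher. A 1.5-fold threshold gave 36 and 30, 17 and 18, and 29 and 31. At 21 dpi minus uninjured the median of spots gave 1 and 8, leaving out spot 1 gave 4 and 10, and leaving out spot 2 gave 4 higher. Collapsing probes of 1 name left 4 and 3 lower at 7 and 21 dpi relative to uninjured hearts. No paired analysis was possible because each group holds 1 sample.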
